A study of Mus musculus with 15 samples.

Results

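The keratin genes of mouse small intestinal organoids were taken as every row of the gene count table whose symbol is Krt followed by a number and at most 1 letter. This rule gave 56 of the 78298 rows, with 55 different symbols because Krt74 is listed as 2 rows. Keratin-associated protein genes and pseudogenes carry other names and were not members. By textbook class, 28 rows were type I keratins and 28 were type II keratins. Of the 56 rows, 5 were simple epithelial keratins (Krt7, Krt8, Krt18, Krt19 and Krt20), 19 were keratins of stratified epithelia, 10 belonged to the sheaths of the hair follicle, 16 were hair keratins and 6 were in none of these classes.

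Poly-A RNA was sequenced from 15 libraries, 3 for each of 5 conditions, to follow what a constitutively expressed SOX9 transgene does to organoids as they pass from a budding to a spheroid shape. The organoids were primary cultures from female C57BL/6J mice of 8 to 16 weeks, each of the 3 constructs was carried by 1 stable line made with lentivirus, and RNA was taken 5 days after seeding from 6 wells per line. Halo-NLS, the control, carried a V5-tagged HaloTag with a nuclear localisation signal, and SOX9-Halo_budding and SOX9-mEGFP_budding carried Sox9 fused to HaloTag or to mEGFP. All 3 transgenes were driven by the L30 promoter and selected with puromycin, so every condition, the control included, had been transduced and selected. SOX9-Halo_spheroid and SOX9-mEGFP_spheroid carried the same Sox9 transgenes and a later second one, histone H2B fused to mEGFP with zeocin resistance in the SOX9-Halo line and H2B fused to mScarletI with neomycin resistance in the SOX9-mEGFP line. Both spheroid conditions were also at later passages than the budding ones, so shape, the second transgene and time in culture cannot be told apart. The replicates are described as biological triplicates of these single lines, and p-values therefore measure the spread between libraries of 1 line. A bulk library cannot tell fewer cells of a type from less RNA per cell.

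Keratins are the intermediate filament proteins of epithelial cells. A type I (acidic) chain pairs with a type II (basic) chain, and neither forms a filament alone, so the levels of both types belong together. Krt8 (type II) and Krt18 (type I) are the pair of simple epithelia, with Krt19 as a further type I partner, and the intestinal epithelium adds Krt20 (type I) in differentiated cells. Krt7 (type II) is a keratin of ductal and other simple epithelia. Krt5 and Krt14 are the basal pair of stratified epithelia, Krt6a and Krt16 are linked to wounded or fast-growing epidermis, Krt4 and Krt13 form the suprabasal pair of mucosal linings, and Krt1 and Krt10 that of epidermis.

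Promoter sequence is shown for 4 members, namely Krt20, which fell most, Krt7 and Krt18, the abundant keratins that rose in both spheroid conditions, and Krt14, a stratified keratin seen almost only in spheroids. Each sequence is the 250 bases before the start of the canonical GENCODE M39 transcript in the GRCm39 assembly, 5′ to 3′ on the gene's strand. Capitals mark matches, on either strand, to 6 short motifs chosen after the values had been seen. One motif of SOX factors was ACAAAG, and the other motif of SOX factors was ACAATG. The motif of CDX factors was TTTATNG, that of AP-1 was TGANTCA, that of TEAD factors was GGAATG and that of the TATA box was TATAAA. N was allowed to be any base, so TTTATNG and TGANTCA are loose forms. The Krt20 window is chr11:99328986-99329235 on the minus strand, the Krt7 window chr15:101310033-101310282 on the plus strand, the Krt18 window chr15:101936365-101936614 on the plus strand and the Krt14 window chr11:100098491-100098740 on the minus strand.
Krt20: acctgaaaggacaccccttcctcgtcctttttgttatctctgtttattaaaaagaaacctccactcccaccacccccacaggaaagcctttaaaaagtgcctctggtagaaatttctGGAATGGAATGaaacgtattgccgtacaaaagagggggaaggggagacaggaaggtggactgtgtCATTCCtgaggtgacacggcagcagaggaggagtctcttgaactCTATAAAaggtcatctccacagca
Krt7: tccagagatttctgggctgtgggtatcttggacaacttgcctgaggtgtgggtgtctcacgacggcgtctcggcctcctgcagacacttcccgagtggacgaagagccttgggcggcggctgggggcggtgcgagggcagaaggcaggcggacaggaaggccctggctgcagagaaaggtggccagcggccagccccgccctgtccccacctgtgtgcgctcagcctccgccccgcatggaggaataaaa
Krt18: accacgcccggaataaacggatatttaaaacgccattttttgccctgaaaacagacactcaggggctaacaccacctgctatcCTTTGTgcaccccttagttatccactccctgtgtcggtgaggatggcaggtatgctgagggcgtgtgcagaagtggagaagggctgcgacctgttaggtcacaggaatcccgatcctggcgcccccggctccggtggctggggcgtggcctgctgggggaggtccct
Krt14: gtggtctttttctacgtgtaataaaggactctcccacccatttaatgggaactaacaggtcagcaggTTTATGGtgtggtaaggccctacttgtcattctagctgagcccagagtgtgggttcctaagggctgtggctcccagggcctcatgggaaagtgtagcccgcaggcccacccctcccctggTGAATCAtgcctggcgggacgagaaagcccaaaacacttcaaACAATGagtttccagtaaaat

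The Krt20 window held 3 matches to GGAATG, starting 133, 128 and 68 bases before the transcript start, and a TATAAA at 23 bases, overlapped by a TTTATNG match at 24 bases. Among 21770 windows of the same length before the starts of genes, 12.1% held GGAATG, 11.9% held TATAAA and 9.57% held TTTATNG. The Krt18 window held ACAAAG at 167 bases, a match present in 15.9% of windows. Krt14 had ACAATG starting 21 bases before the transcript start, TGANTCA (read as TGAATCA) at 63 bases and TTTATNG at 183 bases, present in 9.41%, 6.17% and 9.57% of windows. The Krt7 window held none of the 6 motifs. These are matches of letters only and were not tested as sites.

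Between 28062722 and 40559766 reads per library were counted on genes, and keratins took 0.331% to 1.00% of them. Of the 56 rows, 6 had no count in any library, 31 had counts but did not reach the filter on low counts (at most 13 counts in a library) and 19 were tested, among 17560 genes tested in all. The 5 simple keratins were all tested, as were 10 of the 19 stratified rows, 3 of the 6 unclassed rows (Krt23, Krt80 and Krt222) and 1 of the 16 hair keratins (Krt87). None of the 10 hair follicle sheath rows was. The 6 rows without a count were both rows of Krt74 and those of Krt9, Krt33b, Krt34 and Krt72. Levels below are counts scaled by library size and TMM factor to the mean library and are called normalized counts. A keratin was called changed at an adjusted p (edgeR quasi-likelihood test, Benjamini-Hochberg over all genes tested) of at most 0.01, a log2 fold change of at least 1 either way and normalized counts averaging 10 or more over the 15 libraries, which 15 of the 19 reached. Several stratified keratins passed the filter only through the spheroid libraries in which they were high. The share of tested keratins that were called is therefore a description and supports nothing by itself. The same holds for the medians over the stratified keratins and for the counts of keratins without overlap.

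Per kb of exon, the 5 most abundant keratins over all libraries were Krt8, Krt19, Krt18, Krt20 and Krt7, with mean normalized counts per kb of 46909, 25128, 24322, 2239 and 2204. The order of Krt20 and Krt7 turns round with the length of the canonical transcript, which puts Krt7 at 3795 and Krt20 at 2239. Simple keratins made up on average 99.7% of the summed keratin level per kb in Halo-NLS and 99.0% in SOX9-Halo_spheroid. All 5 conditions therefore had the keratin make-up of a simple epithelium, and the results below are changes among the simple keratins plus stratified keratins at levels far below them.

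Krt8 (chr15:101905133-101912917), the main type II chain, had normalized counts of 64074, 91428 and 124593 in Halo-NLS, 104862, 91487 and 72305 in SOX9-mEGFP_budding and 59380, 69242 and 49457 in SOX9-Halo_budding. In spheroids it stood at 155564, 150386 and 144717 in SOX9-mEGFP and at 64662, 71176 and 64397 in SOX9-Halo. The SOX9-mEGFP spheroids lay above every other library, while the SOX9-Halo spheroids overlapped Halo-NLS and their own budding libraries. Against Halo-NLS the log2 fold change was 0.69 ± 0.23 (SE, n = 3 against 3, as in every comparison; adjusted p = 0.023, edgeR) in SOX9-mEGFP_spheroid and -0.48 ± 0.23 (adjusted p = 0.095) in SOX9-Halo_spheroid, neither of them a call.

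Krt18 (chr15:101936615-101940462), the type I partner of Krt8, stood at 12757, 15586 and 24010 normalized counts in Halo-NLS, at 22832, 21868 and 27363 in SOX9-mEGFP_budding and at 12480, 16972 and 14153 in SOX9-Halo_budding. The spheroid libraries held 66111, 71919 and 61409 (SOX9-mEGFP) and 56910, 52864 and 47032 (SOX9-Halo). Every spheroid library was above every other library. Krt18 rose against Halo-NLS by a log2 fold change of 1.93 ± 0.23 in SOX9-mEGFP_spheroid (adjusted p = 9.8e-06, edgeR) and of 1.58 ± 0.23 in SOX9-Halo_spheroid (adjusted p = 3.9e-05). Within the lines the rise from budding to spheroid was 1.47 ± 0.23 (adjusted p = 0.00016) and 1.85 ± 0.23 (adjusted p = 1e-05).

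Krt19 (chr11:100031636-100039491), the other abundant type I chain of simple epithelia, ranged from 36999 to 60634 normalized counts in Halo-NLS, 32260 to 43577 in SOX9-mEGFP_budding and 27709 to 33421 in SOX9-Halo_budding. It ranged from 67187 to 79533 in SOX9-mEGFP_spheroid and from 36140.5 to 48868 in SOX9-Halo_spheroid. No comparison gave a call. The nearest was SOX9-mEGFP_spheroid against SOX9-mEGFP_budding, where the log2 difference was 0.94 ± 0.21 (adjusted p = 0.0028, edgeR), under the fold minimum.

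Krt7 (chr15:101308924-101328194) was at 3623, 5072 and 8830 normalized counts in Halo-NLS, at 4110, 3727 and 6076 in SOX9-mEGFP_budding and at 1956, 2552 and 1891 in SOX9-Halo_budding. The SOX9-mEGFP spheroids held 23046, 24827 and 23867 and the SOX9-Halo spheroids 42927, 41873 and 38662. The order of the conditions was without overlap between the spheroids and the rest, and the SOX9-Halo budding libraries were the lowest of all 15. Relative to Halo-NLS, Krt7 had risen by a log2 value of 2.03 ± 0.29 in SOX9-mEGFP_spheroid (4.09-fold, adjusted p = 4.8e-05, edgeR) and of 2.82 ± 0.29 in SOX9-Halo_spheroid (7.04-fold, adjusted p = 1.8e-06). From budding to spheroid it rose by 2.37 ± 0.29 (adjusted p = 2.1e-05) in the SOX9-mEGFP line and by 4.27 ± 0.31 (19.3-fold, adjusted p = 6.7e-08) in the SOX9-Halo line.

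Krt20 (chr11:99319227-99328985), the keratin of differentiated intestinal cells, went the other way. Normalized counts were 11352, 8978 and 3962 in Halo-NLS, 9568, 7166 and 2021 in SOX9-mEGFP_budding, 5343, 4420 and 3009.7 in SOX9-Halo_budding and 3131, 3726 and 2371 in SOX9-mEGFP_spheroid. SOX9-Halo_spheroid held 19.0, 5.68 and 6.30, from raw counts of 16, 6 and 7. The SOX9-mEGFP spheroids lay just under Halo-NLS and within the range of SOX9-mEGFP_budding, and the SOX9-Halo spheroids were far below all other libraries. Krt20 fell by 9.66 on the log2 scale against Halo-NLS (SE 0.74, adjusted p = 9.1e-08, edgeR) and fell by 8.73 against SOX9-Halo_budding (SE 0.72, adjusted p = 2e-07). In SOX9-mEGFP_spheroid the log2 difference from Halo-NLS was -1.40 ± 0.50 (adjusted p = 0.030), and that from budding organoids of its own line was -1.02 ± 0.49 (adjusted p = 0.15), with no call in either. Replicate 3 held the lowest Krt20 value of its group in every condition but SOX9-Halo_spheroid.

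**Figure D1:**
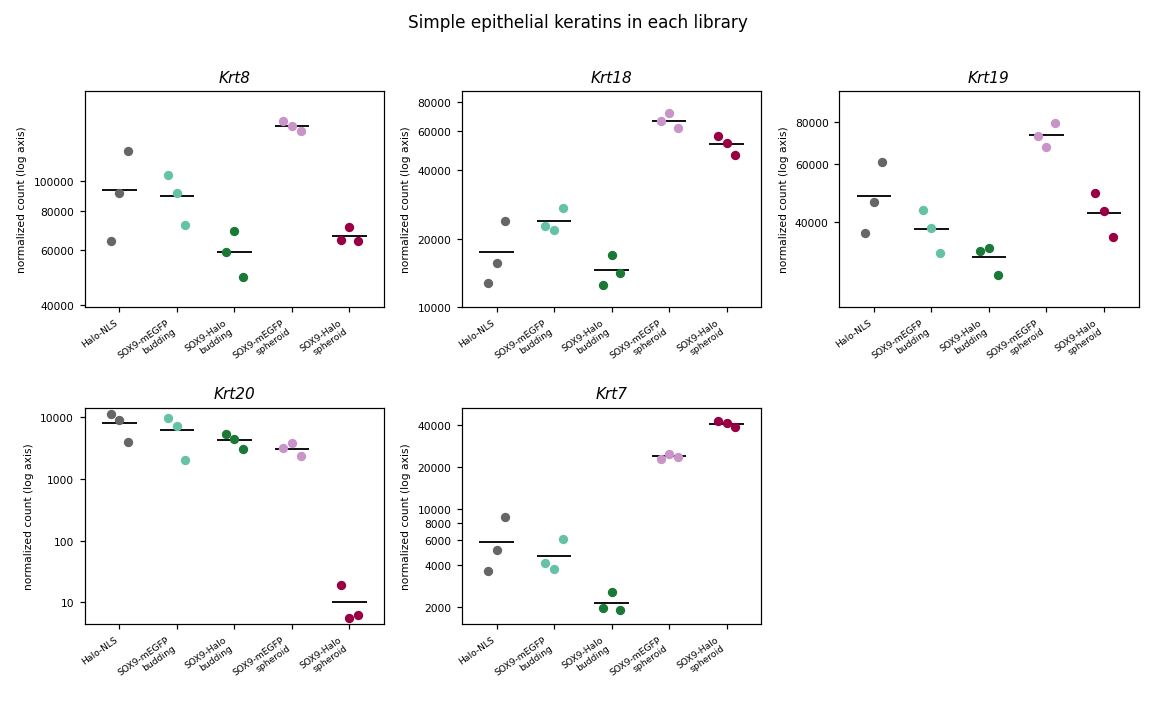
Normalized counts (log axis) of the 5 simple keratins in each of the 15 libraries, by condition, with a line at the mean of the 3 libraries. Krt18 and Krt7 are higher in all 6 spheroid libraries than in the other 9, and Krt20 is at 5.68 to 19.0 in SOX9-Halo_spheroid and at 2021 or more elsewhere.

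The balance of type I and type II chains moved with these changes. The ratio of Krt8 to Krt18, both per kb of exon, was 3.69, 4.31 and 3.81 in Halo-NLS, 3.37, 3.07 and 1.94 in SOX9-mEGFP_budding and 3.49, 2.99 and 2.56 in SOX9-Halo_budding. It was 1.73, 1.53 and 1.73 in SOX9-mEGFP_spheroid and 0.834, 0.988 and 1.00 in SOX9-Halo_spheroid. The ranges of the spheroid conditions did not overlap those of the other conditions or each other. With 3 libraries against 3, an exact permutation test cannot give a two-sided p under 0.1, so no test is given. In SOX9-Halo spheroids Krt18 and Krt8 stood at about the same level per kb.

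Type II chains made up 52.8% ± 3.57 (SD, n = 3) of the summed keratin level per kb in Halo-NLS, 53.0% ± 2.61 in SOX9-mEGFP_budding, 50.9% ± 1.78 in SOX9-Halo_budding, 47.6% ± 0.857 in SOX9-mEGFP_spheroid and 40.2% ± 2.72 in SOX9-Halo_spheroid. Without division by length the share was 56.6% in Halo-NLS and 53.1% in SOX9-Halo_spheroid, so the size of this shift rests on the length correction, which weighs down the long Krt7 gene (7049 bases of exon). The summed keratin level per kb was 90909 ± 24376 in Halo-NLS, 87221 ± 11594 in SOX9-mEGFP_budding, 60053 ± 7957 in SOX9-Halo_budding, 168565 ± 2980 in SOX9-mEGFP_spheroid and 100355 ± 7795 in SOX9-Halo_spheroid. Krt18 gave 13.2% of that sum in Halo-NLS, 27.4% in SOX9-mEGFP_spheroid and 36.2% in SOX9-Halo_spheroid, and Krt7 gave 0.882%, 2.01% and 5.83%. Krt20 gave 5.21% in Halo-NLS, 0.940% in SOX9-mEGFP_spheroid and 0.00520% in SOX9-Halo_spheroid. Leaving out Krt8, the type II share was 1.93% in Halo-NLS, 1.70% and 1.08% in the budding conditions, 3.85% in SOX9-mEGFP_spheroid and 9.37% in SOX9-Halo_spheroid, most of it Krt7.

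**Figure D2:**
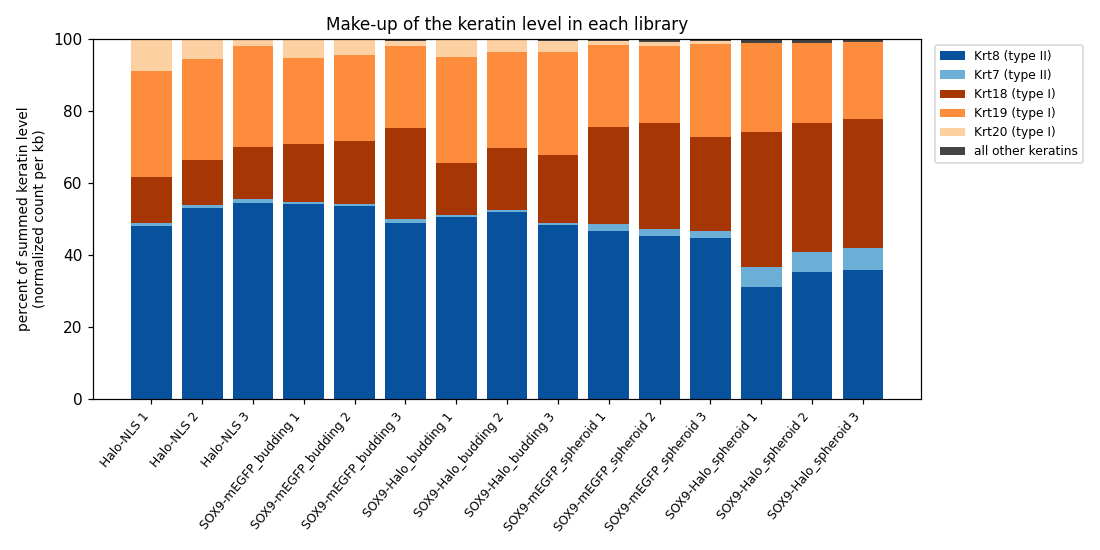
Share of each simple keratin, and of all other keratins together, in the summed keratin level (normalized counts per kb of exon, in percent) of each library, type II in blue and type I in orange. The Krt8 block averages 51.9% in Halo-NLS and 34.1% in SOX9-Halo_spheroid, and the Krt18 block widens from 13.2% to 36.2%.

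Among the keratins of stratified epithelia, Krt14 (chr11:100093988-100098490), the type I chain of basal cells, had normalized counts of 166, 147 and 114 in SOX9-mEGFP_spheroid and 237, 239 and 183 in SOX9-Halo_spheroid. In Halo-NLS it had 0, 0 and 11.3, in SOX9-mEGFP_budding 0 in all 3 libraries and in SOX9-Halo_budding 0, 0.973 and 0.976. All 9 counts of the control came from replicate 3, the library in which the most genes had a count (40375). Krt14 rose by 5.84 ± 0.75 on the log2 scale in SOX9-Halo_spheroid against Halo-NLS (adjusted p = 3.1e-05, edgeR) and by 5.21 ± 0.75 in SOX9-mEGFP_spheroid (adjusted p = 0.00011). Without Halo-NLS replicate 3 these fitted values were 10.80 and 10.18, against a group at 0. Against budding, with 0 counts in SOX9-mEGFP_budding, the rise was at least 146-fold in that line (taking a floor of 3 counts over the 3 libraries). In the SOX9-Halo line, with 2 counts in the budding libraries, the ratio was 360 (95% counting interval 99.4 to 2982, exact binomial).

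Krt5, the type II partner of Krt14, averaged 8.55 normalized counts, under the minimum, so the call rule could not call it. Krt5 held 9.76, 13.0 and 9.52 normalized counts in SOX9-mEGFP_spheroid and 26.1, 21.8 and 9.90 in SOX9-Halo_spheroid, against 1.31, 0 and 5.03 in Halo-NLS. Its log2 fold change against Halo-NLS was 3.13 ± 1.14 in SOX9-Halo_spheroid (adjusted p = 0.034, edgeR) and 2.31 ± 1.18 in SOX9-mEGFP_spheroid (adjusted p = 0.12). The budding libraries reached 14.0 and 10.7 in replicate 3 of SOX9-mEGFP and SOX9-Halo and were at 6.07 or less elsewhere. Per kb of exon, Krt14 exceeded Krt5 15.8 ± 3.66-fold in SOX9-mEGFP_spheroid and 15.2 ± 5.84-fold in SOX9-Halo_spheroid (SD, n = 3), so the basal pair was not at matched levels.

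Krt6a (type II) and Krt16 (type I), keratins of activated epidermis, were also seen almost only in spheroids. Krt6a had 46.1, 56.1 and 58.1 normalized counts in SOX9-mEGFP_spheroid and 17.8, 17.0 and 14.4 in SOX9-Halo_spheroid, and 1 raw count in all of Halo-NLS. Raw counts of Krt16 were 18, 22 and 14 in SOX9-mEGFP_spheroid and 27, 18 and 21 in SOX9-Halo_spheroid, and 0 in each of the 9 other libraries. Krt16 was thus at least 13.8-fold higher in SOX9-mEGFP_spheroid and at least 17.8-fold higher in SOX9-Halo_spheroid than in Halo-NLS (floor of 3 counts over the group). Krt6a was called higher in both spheroid conditions, with a ratio to Halo-NLS of 129 (95% counting interval 22.9 to 5142) in SOX9-mEGFP and 39.6 (6.78 to 1594) in SOX9-Halo. In the second of these the call was lost when only those conditions were fitted, under the minimum of the mean count and not of p (adjusted p = 0.00064, edgeR). Krt16 passed the thresholds of p and fold but had a mean normalized count of 7.95, under the minimum. Of the stretches of 100 bases in the Krt6a transcript 47.6% occur in other genes too, and 23.2% of those of Krt16, so their counts from unique alignments are uncertain. For Krt6a these genes include Gm49428 and Gm55158, antisense genes that overlap it, so not all of its share is a limit of alignment. Krt6b, the near copy of Krt6a, had at most 8 counts in a library, and Krt17 at most 2.

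Krt79, Krt4 and Krt78, type II keratins that lie next to each other at chr15:101826970-101862722, form a further group. Krt79, known from the hair follicle duct and sebaceous gland, had 807, 1023 and 833 normalized counts in SOX9-Halo_spheroid, 47.9, 37.0 and 48.6 in SOX9-mEGFP_spheroid, and at most 10.1 in any other library. It was the most abundant stratified keratin of the SOX9-Halo spheroids per kb of exon. Krt79 rose against Halo-NLS by 7.85 ± 0.71 on the log2 scale in SOX9-Halo_spheroid (adjusted p = 4.2e-07, edgeR) and by 3.54 ± 0.69 in SOX9-mEGFP_spheroid (adjusted p = 0.00077). Without Halo-NLS replicate 3, which held 8 of the 9 counts of the control, these became 10.24 and 5.93. The 2 spheroid conditions differed by 4.31 ± 0.56 (adjusted p = 3.9e-05).

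Krt78 stood at 45.3, 61.1 and 46.7 normalized counts in SOX9-mEGFP_spheroid and at 73.4, 48.2 and 55.8 in SOX9-Halo_spheroid, against 10.9 or less in the 9 other libraries. Its log2 rise over Halo-NLS was 4.08 ± 0.60 (adjusted p = 7.4e-05, edgeR) and 4.29 ± 0.60 (adjusted p = 3.1e-05). Krt4, the type II chain of mucosal linings, was at 84.1, 71.9 and 41.4 in SOX9-Halo_spheroid and at 13.0 to 22.2 in SOX9-mEGFP_spheroid. SOX9-mEGFP_budding held 4.86, 6.23 and 17.1, so that its replicate 3 lay inside the range of the SOX9-mEGFP spheroids. Krt4 rose only in SOX9-Halo_spheroid by the call rule, by 4.28 ± 0.78 against Halo-NLS (adjusted p = 0.00035), and the value in SOX9-mEGFP_spheroid was 2.45 ± 0.81 (adjusted p = 0.022). The difference between the spheroid conditions, 1.82 ± 0.61, was not a call (adjusted p = 0.042). Krt13, the type I partner of Krt4, had raw counts of 16, 26 and 28 in SOX9-Halo_spheroid, 1, 3 and 5 in SOX9-mEGFP_spheroid and at most 3 in any other library, and its mean of 5.53 normalized counts was under the minimum.

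Krt15, a type I keratin of basal and stem-like cells of stratified epithelia, had another pattern. It was at 5.32, 5.01 and 2.86 normalized counts in SOX9-mEGFP_spheroid, the lowest of all libraries, and at 19.0, 40.7 and 31.5 in SOX9-Halo_spheroid. Budding libraries held 19.4, 15.6 and 45.2 (SOX9-mEGFP) and 11.1, 12.6 and 42.0 (SOX9-Halo), and Halo-NLS held 6.53, 9.18 and 20.1. Between budding and spheroid organoids of the SOX9-mEGFP line Krt15 fell by 2.59 on the log2 scale (SE 0.66, adjusted p = 0.0076, edgeR). That call was lost on leaving out replicate 1 or 3 of SOX9-mEGFP_budding or any 1 spheroid library (adjusted p up to 0.042). It was also lost with scaling by library sizes alone. Krt10, the type I chain of suprabasal epidermis, was the most even of the stratified keratins, with 98.0 to 207 normalized counts over all 15 libraries and no call, and its partner Krt1 had at most 3 counts in a library.

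**Figure D3:**
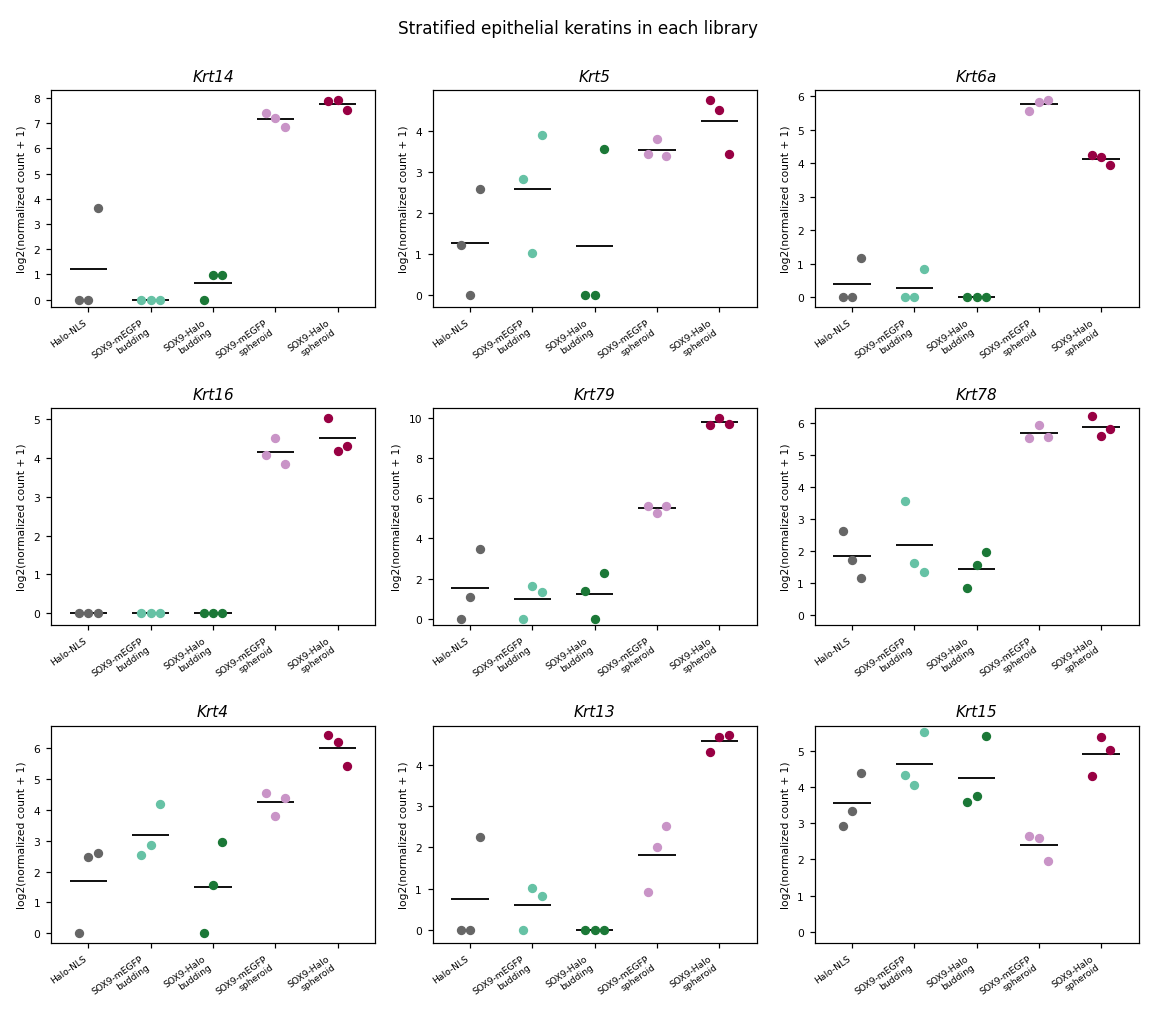
Levels of 9 stratified keratins in each library as log2(normalized count + 1), by condition, with a line at the mean of the 3 libraries. Krt14, Krt6a, Krt16, Krt79 and Krt78 are higher in all 6 spheroid libraries than in the other 9, Krt13 only in SOX9-Halo_spheroid, and Krt15 is lowest in SOX9-mEGFP_spheroid.

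Krt23 and Krt80, which belong to neither class here, rose in both spheroid conditions. Krt23 (type I) held 2933, 3974 and 2489 normalized counts in SOX9-mEGFP_spheroid and 1946, 1541 and 1299 in SOX9-Halo_spheroid, against 356 to 869 in the 9 other libraries. Its log2 rise over Halo-NLS was 2.58 ± 0.25 (adjusted p = 1.2e-06, edgeR) in SOX9-mEGFP_spheroid and 1.61 ± 0.24 (adjusted p = 5.4e-05) in SOX9-Halo_spheroid. Krt80 (type II) held 283, 392 and 493 in SOX9-mEGFP_spheroid and 496, 457 and 502 in SOX9-Halo_spheroid, against 12.7 to 59.2 elsewhere. It rose by 3.69 ± 0.42 (adjusted p = 6.4e-06) and by 4.01 ± 0.42 (adjusted p = 1.9e-06). The hair keratin Krt87 had 8.78 to 68.0 normalized counts over all libraries and no call. Krt222, an atypical type I keratin, had 2 raw counts in SOX9-Halo_spheroid against 21 in Halo-NLS, so Halo-NLS was higher by a ratio of 13.0 (95% counting interval 3.18 to 114), with a mean under the minimum.

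In SOX9-Halo_spheroid against Halo-NLS, 9 of the 19 tested keratins were called higher, where 13.6% of all genes tested were called higher, and 1 was called lower (Krt20), where 15.3% of all genes were (28.9% either way). The 9 were Krt7, Krt18, Krt23, Krt80, Krt14, Krt79, Krt78, Krt4 and Krt6a. By type, 3 of 10 type I and 6 of 9 type II keratins were called higher, and by class 2 of 5 simple and 5 of 10 stratified keratins. The median log2 fold change was -0.17 over the 5 simple and 4.29 over the 10 stratified keratins (4.21 with genes against a group at 0 set to their bound), against -0.01 over all genes tested. Most of the stratified keratins tested had passed the filter only through spheroid libraries, so their median is a description. In 14 of the 19 the groups did not overlap, where 54.8% of all genes had no overlap.

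SOX9-mEGFP_spheroid shares the control libraries with that comparison. Against Halo-NLS, 8 of 19 keratins were called higher there (background 15.3% of genes) and 0 lower (background 12.1%, or 27.5% either way). These were Krt7, Krt18, Krt23, Krt80, Krt14, Krt79, Krt78 and Krt6a. The median log2 fold change was 0.69 over the simple and 3.00 over the stratified keratins, against 0.03 over all genes, and 16 of the 19 did not overlap (56.5% of all genes). The limit set by the filter applies to these values too. DESeq2 called 8 higher and 0 lower as well, and 14 of the 19 keratins had an unadjusted edgeR p under 0.05 in either direction.

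Within the lines the same question was asked of shape with the Sox9 transgene held the same. In the SOX9-Halo line 9 keratins were called higher in spheroids than in budding organoids (background 10.5%) and Krt20 lower (background 14.7%, or 25.3% either way). The 9 were the simple keratins Krt7 and Krt18, the stratified Krt14, Krt79, Krt78, Krt4 and Krt6a, and Krt23 and Krt80. In this line same-numbered libraries deviated together, and with the replicate number as a block within it, 11 were called, without Krt6a and with Krt13 and Krt16. In the SOX9-mEGFP line 8 were called higher (background 8.55%), the list just given without Krt4, and Krt15 was called lower (background 7.88%, or 16.4% either way). No overlap between spheroid and budding libraries was seen for 14 of 19 keratins in the SOX9-Halo line (52.8% of all genes) and for 14 of 19 in the SOX9-mEGFP line (46% of all genes).

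**Figure D4:**
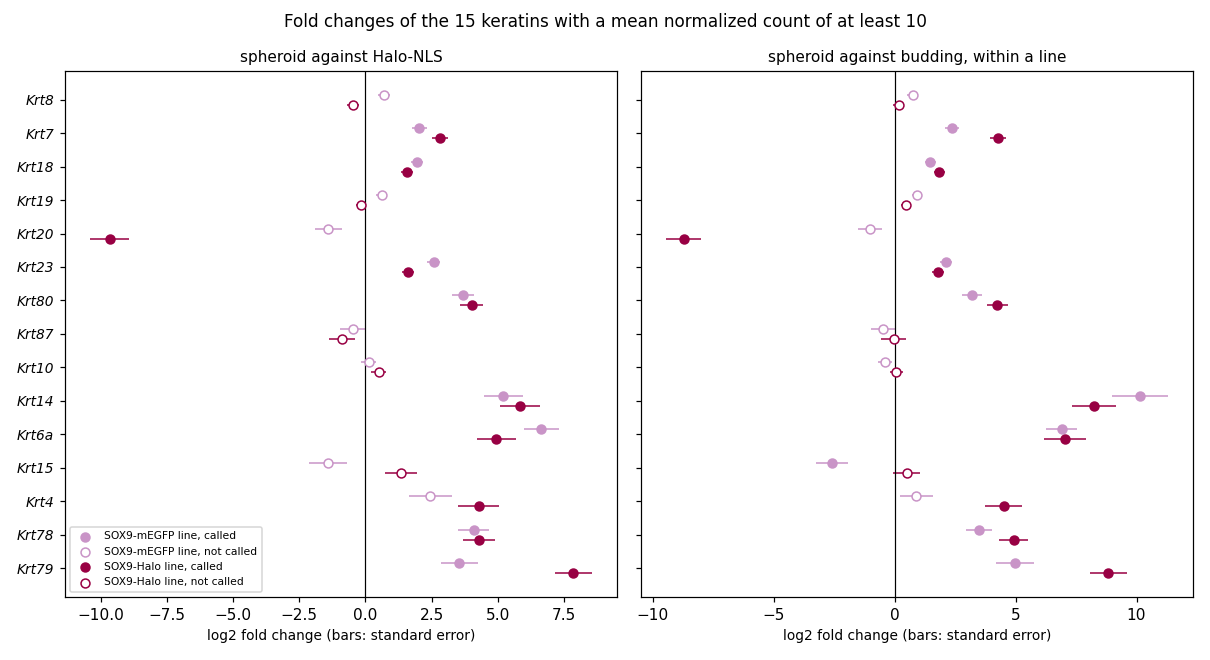
Log2 fold changes (points) with standard errors (bars) of the 15 keratins whose normalized counts averaged 10 or more, for spheroid against Halo-NLS (left) and spheroid against budding of the same line (right). Filled points passed the call rule, and Krt20 at -9.66 and -8.73 in the SOX9-Halo line is the only filled point left of 0 besides Krt15 in the SOX9-mEGFP line. Values for Krt14 and Krt6a rest on 0 to 9 counts in the group they are compared with. Those for Krt79 rest on 4 to 9 such counts and those for Krt78 on 6 to 13. Krt4 had 8 counts in Halo-NLS, 9 in SOX9-Halo_budding and 32 in SOX9-mEGFP_budding.

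The spheroid conditions differed from each other in 5 keratins. Krt79 and Krt15 were higher in SOX9-Halo_spheroid than in SOX9-mEGFP_spheroid (background 3.59%), and Krt8, Krt20 and Krt6a were lower (background 9.58%, or 13.2% either way). Groups did not overlap in 14 of the 19 (48.6% of all genes). Krt8 fell by 1.17 on the log2 scale (SE 0.23, adjusted p = 0.0016, edgeR), Krt20 by 8.26 (SE 0.71, adjusted p = 8.4e-07) and Krt6a by 1.70 (SE 0.39, adjusted p = 0.0064), while Krt15 was higher by 2.76 ± 0.66 (adjusted p = 0.006). The call of Krt6a was lost on leaving out any 1 of the 6 libraries (adjusted p up to 0.038), and that of Krt15 on leaving out any SOX9-mEGFP spheroid library or replicate 2 or 3 of SOX9-Halo_spheroid (adjusted p up to 0.031). For Krt7, higher by 0.78 ± 0.28 (adjusted p = 0.052), Krt18 and Krt80 no difference was called. The genes of chromosome 15 tested, which carries Krt8 and the type II cluster, had a median of -0.42 in this comparison against -0.05 over all genes, and of -0.49 against 0.01 between SOX9-Halo_budding and SOX9-mEGFP_budding. Against Halo-NLS the chromosome 15 median was 0.36 in SOX9-mEGFP_spheroid and 0.37 in SOX9-mEGFP_budding, -0.08 in SOX9-Halo_spheroid and -0.10 in SOX9-Halo_budding. Its part in the values of Krt8, Krt7, Krt18 and the type II cluster was not tested. From budding to spheroid within a line the chromosome 15 medians were -0.00 (SOX9-Halo) and -0.04 (SOX9-mEGFP).

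Whether the lines changed unequally between the budding and the spheroid shape was tested directly, and 2 keratins were called (background 7.39% either way). The change of Krt20 was the more negative in the SOX9-Halo line (log2 difference of the changes -7.71 ± 0.83, adjusted p = 1.7e-05, edgeR; background called lower 5.58%). The rise of Krt7 was greater there by 1.90 ± 0.39 (adjusted p = 0.0039; background called higher 1.81%), a call lost on leaving out any of 6 libraries in turn (adjusted p up to 0.013). For the other 17 keratins tested no difference between the lines was called, among them Krt79 at 3.86 ± 1.47 (adjusted p = 0.11), Krt4 at 3.60 ± 1.03 (adjusted p = 0.031) and Krt15 at 3.08 ± 0.86 (adjusted p = 0.028). DESeq2 did call Krt79 and Krt4 here, and edgeR called Krt4 and Krt15 at an adjusted p of at most 0.05.

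Before the change of shape the keratins moved little. SOX9-Halo_budding had 1 keratin called lower than Halo-NLS (background 1.26%) and 0 called higher (background 2.49%, or 3.75% either way). It was Krt7, which fell by 1.45 on the log2 scale (SE 0.28, adjusted p = 0.0053, edgeR), with all 3 libraries below the control. Groups did not overlap in 2 of the 19 keratins (29.7% of all genes). DESeq2 called 1 as well, and 3 keratins had an unadjusted edgeR p under 0.05. The Krt7 call was lost when only these 2 conditions were fitted (adjusted p = 0.084) and on leaving out replicate 2 or 3 of Halo-NLS or replicate 1 or 3 of SOX9-Halo_budding. SOX9-mEGFP_budding had 0 keratins called against Halo-NLS by edgeR (background 1.99% higher, 0.763% lower and 2.76% either way) and 0 by DESeq2, 1 of the 19 did not overlap (32.5% of all genes), and 1 had an unadjusted edgeR p under 0.05. Between the budding conditions 0 were called by edgeR (background 0.29% higher, 0.165% lower and 0.456% either way) and 0 by DESeq2, and 4 had an unadjusted edgeR p under 0.05 (Krt7, Krt8, Krt18 and Krt23, all lower in SOX9-Halo_budding). In 4 of the 19 these groups did not overlap (12% of all genes). The largest of these log2 differences was that of Krt7, -1.12 ± 0.28 (adjusted p = 0.080).

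Genes that work with keratins were followed in 3 lists. Of 15 genes for keratin linkers and the desmosome plaque, all tested, 4 were called higher and 1 lower in SOX9-Halo_spheroid against Halo-NLS, and 5 higher and 0 lower in SOX9-mEGFP_spheroid. Over all genes tested, 13.6% were called higher and 15.3% lower in the first of these comparisons, and 15.3% higher and 12.1% lower in the second. Ppl (periplakin), Dsp (desmoplakin), Pkp4 and Perp were called higher in each of these. Ppl rose by 2.81 ± 0.34 and 2.86 ± 0.34 on the log2 scale in the SOX9-Halo and SOX9-mEGFP spheroids (adjusted p = 7.4e-06 and 1e-05, edgeR). Perp, 1 of the 3 most abundant genes of the lists per kb, rose by 1.98 ± 0.20 and 1.55 ± 0.20. Pkp1 was the fifth in SOX9-mEGFP_spheroid, and Dst (dystonin) the gene that fell in SOX9-Halo_spheroid. Dsp was lower in Halo-NLS (1311 to 5058 normalized counts) than in budding organoids too (8917 to 14811), and from budding to spheroid its log2 differences of -0.21 ± 0.39 and 0.67 ± 0.39 were not calls.

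Of 15 other intermediate filament genes, 11 were tested, and against Halo-NLS 3 were called higher and 4 lower in SOX9-Halo_spheroid and 1 higher and 5 lower in SOX9-mEGFP_spheroid, beside the same shares of all genes (13.6% higher and 15.3% lower, then 15.3% higher and 12.1% lower). Synm (synemin) was called higher in both, at 0, 0 and 3.77 normalized counts in Halo-NLS and at 155 or more in each spheroid library. Nefm, a neurofilament gene, went from 43.6 to 91.5 normalized counts in Halo-NLS to 0.887 or less in every spheroid library. Ina (internexin) fell in both, as did Vim (vimentin), the filament of mesenchymal cells, which fell by 3.53 and 2.56. Des, also in the mesenchymal list below, held 2.61, 0 and 8.80 normalized counts in Halo-NLS and 27.2, 55.8 and 51.3 in SOX9-Halo_spheroid. In SOX9-mEGFP_spheroid it was at 7.10 or less. Lmna, the most abundant of this list per kb, held 6945 to 9349 in Halo-NLS, 13456 to 17119 in SOX9-mEGFP_spheroid and 25082 to 32969 in SOX9-Halo_spheroid.

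Of 16 transcription factors linked to epithelial keratins, 15 were tested, and 8 were called higher and 3 lower in SOX9-Halo_spheroid against Halo-NLS, and 6 higher and 3 lower in SOX9-mEGFP_spheroid. The shares of all genes were 13.6% higher and 15.3% lower in the first and 15.3% higher and 12.1% lower in the second. Cdx2 and Hnf4a, factors of intestinal identity and the most abundant of this list per kb, were among those that fell. Cdx2 fell by 7.35 in SOX9-Halo_spheroid (SE 0.31, adjusted p = 8.5e-10, edgeR) and by 2.51 in SOX9-mEGFP_spheroid (SE 0.25). Hnf4a fell by 4.61 and 1.36. Ovol1, of the same list, held 2281, 2866 and 2417 normalized counts in Halo-NLS. It was lower in both spheroid conditions, at 744, 470 and 656 in SOX9-mEGFP_spheroid and 770, 452 and 417 in SOX9-Halo_spheroid. Tfap2a, a factor of surface ectoderm, rose by 5.66 ± 0.49 and 4.18 ± 0.46, Zfp750, an epidermal differentiation factor, by 6.33 ± 0.82 and 5.99 ± 0.82, and Grhl1 by 3.39 ± 0.42 and 2.83 ± 0.42. Tfap2c rose in SOX9-Halo_spheroid, at 162 to 266 normalized counts against 13.8 or less in every other library. Trp63, the basal factor of stratified epithelia, was the 1 gene not tested, with 0 to 6.21 normalized counts in every library but Halo-NLS replicate 3 (22.6).

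Markers of other cell types were read beside these keratins. The intestinal epithelial list (6 genes) summed to 230718 to 272433 normalized counts in Halo-NLS, 159385 to 225882 in the budding conditions, 153646 to 189497 in SOX9-mEGFP_spheroid and 48844 to 52102 in SOX9-Halo_spheroid, where Epcam fell by 1.11 on the log2 scale against Halo-NLS (SE 0.16, adjusted p = 3.6e-05, edgeR), Cdh1 differed by 0.48 ± 0.23 (adjusted p = 0.098) and Cdx1 was at 11.7 or less. The squamous list (7 of 8 genes found) summed to 81.5 to 230 in the 9 non-spheroid libraries, 8023 to 14488 in SOX9-mEGFP_spheroid and 5276 to 9385 in SOX9-Halo_spheroid. That sum was mostly Dsg3 (2988 to 13056 in spheroids), Sprr1a and Ivl, while Sprr1b was at 0 in every library, Sprr3 in every spheroid library, and Dsc3 at 3.81 or less in spheroids. The mesothelial list (3 genes) summed to 1104 to 2274 in the 9 non-spheroid libraries and to 11094 to 41256 in spheroids, nearly all of it Msln there, while Upk3b fell and Wt1 was at 3.55 or less in spheroids. The mesenchymal list (9 genes) summed to 41.0 to 95.9 in spheroids and 68.3 to 316 elsewhere, and the endothelial list (4 genes) to 1.18 to 6.01 in spheroids and 12.7 to 45.3 elsewhere. The immune list (6 genes) summed to 220 to 381 in SOX9-mEGFP_spheroid, 113 to 274 in SOX9-Halo_spheroid and 76.1 to 188 elsewhere. Cd68, a macrophage marker in it, was called higher in both spheroid conditions against Halo-NLS (2.57 ± 0.39 and 2.59 ± 0.39), while Ptprc was at 0 in SOX9-Halo_spheroid. Itgam, in the same list, was at 27.7 to 49.7 in Halo-NLS, 6.67 to 26.6 in SOX9-mEGFP_spheroid and 0.946 or less in SOX9-Halo_spheroid. Csf1r was at 11.5 to 32.7, 68.3 to 179 and 2.37 to 9.90 in the same conditions. The part of other cell types in the keratin values was not tested.

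Counting without strand and from unique alignments bears on some of these genes. Overlapping antisense genes cover 17.7% of the exon bases of Krt19, 10.4% of Krt5, 6.86% of Krt10 and 5.16% of Krt8, and 24.9% of Krt6a. Reads in such stretches are ambiguous in union mode without strand and are left out of the counts. Sequences of 100 bases shared with other genes, on either strand, made up 17.1% of the Krt8 transcript and 15.6% of that of Krt19. For Krt19 all of them were shared with Gm73150, the antisense gene that overlaps it, so this is the same stretch seen again. For Krt8 they were shared with the overlapping antisense gene Gm36026 and with the pseudogene Krt8-ps. For Krt18, Krt20 and Krt23 no shared 100 bases were found, and no exon overlap with another gene.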

How the data were processed

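Poly-A RNA sequencing libraries were analysed from 15 samples, 3 in each of 5 conditions given by the labels. Per the labels and the methods of the study, the authors trimmed reads with cutadapt 4.5, aligned them to mm39 (GRCm39) with STAR and counted unique alignments per gene with HTSeq 2.0.2 in union mode without strand. The deposited per-library files hold raw counts, and these counts were used as deposited. Depth was 28062722 to 40559766 reads on genes per library. The 5 HTSeq summary lines were left out, among them reads on no feature (1.83% to 6.09%) and ambiguous reads (9.65% to 13.6%). The authors' normalized counts and 7 tables of their own comparisons, with fold changes and p-values, were not used. No value column was left without a sample (0).

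Genes were filtered with filterByExpr, scaled with TMM and tested in edgeR 4.0.16 (R 4.3.3, limma 3.58.1) with the quasi-likelihood test in 1 fit over all 15 libraries, with condition as the only term and Benjamini-Hochberg adjustment over the 17560 genes tested. Normalized counts are counts divided by the TMM-scaled library size, at the mean library. A call needs an adjusted p of at most 0.01, a log2 fold change of at least 1 either way and normalized counts averaging 10 or more. Ratios on few counts carry exact 95% binomial intervals and a floor of 3 counts, which cover counting error only. Levels per kb divide by the summed exon length of GENCODE M39. Alternatives were RLE scaling, library sizes alone, no low-count filter, other thresholds, DESeq2 1.42.0, a fit of only the conditions compared, a replicate block and each library left out in turn. Deviations of same-numbered libraries from their group means correlated by 0.311, 0.180 and 0.269 between SOX9-Halo_budding and SOX9-Halo_spheroid. A replicate block within that line was therefore run as an alternative, chosen from the data and not from the labels. The main fold changes, p-values and calls of that line come from the fit without a block. The fit was also run on simulated counts drawn around the Halo-NLS means with few genes changed, unlike these data. That run supports no result here. Replicates of a condition differed beyond sampling noise, which cannot show that they are independent. Each counted as 1 because the study describes biological triplicates.

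The members, classes, gene lists and tests were chosen with earlier results of these data known. The text names every called keratin, the simple keratins, the 5 most abundant per kb, and of the related genes up to 6 called per comparison by size and the 3 most abundant. Other genes named (Krt1, Krt5, Krt6b, Krt10, Krt13, Krt16, Krt17, Krt87, Krt222, Dsp, Dst, Pkp1, Des, Lmna, Ovol1, Trp63 and the markers) were chosen after their values were seen. Protein sequences were not used here. Promoter windows were read from GRCm39 with GENCODE M39 transcript starts. Figures were drawn with matplotlib 3.10.9 in Python 3.11.15.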

Additional observations from a re-analysis of the deposited data

Results flagged for a closer look

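The change from budding to spheroid organoids differed between the 2 SOX9 lines, by the test of that difference itself, in Krt7 and Krt20. For Krt7 the change in the SOX9-Halo line exceeded that in the SOX9-mEGFP line by 1.90 on the log2 scale (SE 0.39, adjusted p = 0.0039, edgeR), being 4.27 in the first and 2.37 in the second, and all 3 libraries of each spheroid condition lay above those of its budding condition. This call was lost on leaving out any of 6 libraries in turn (adjusted p up to 0.013). For Krt20 the difference of the changes was -7.71 (SE 0.83, adjusted p = 1.7e-05), from -8.73 in the SOX9-Halo line and -1.02 in the SOX9-mEGFP line, the second of which was not a call. Line, fluorescent tag, second transgene and time in culture cannot be told apart in these differences.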

How the results depend on the processing

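The number of called keratins was 10 in SOX9-Halo_spheroid against Halo-NLS and 10 against SOX9-Halo_budding, and stayed at 10 with each library left out in turn, as did the 8 in SOX9-mEGFP_spheroid against Halo-NLS, while the 9 against SOX9-mEGFP_budding became 8 to 9. The 9 against SOX9-mEGFP_budding also became 8 with library sizes alone (Krt15 lost). Between the spheroid conditions the 5 calls became 3 to 5 with a library left out. For SOX9-Halo_budding against Halo-NLS the 1 call became 0 with library sizes alone, 0 with only the conditions compared and 0 to 1 with a library left out. Without the low-count filter SOX9-mEGFP_budding against Halo-NLS gave 1 call (Krt14 lower) in place of 0, and SOX9-Halo_budding against SOX9-mEGFP_budding 1 (Krt7 lower) in place of 0. The 2 differences between the lines became 4 without the low-count filter, 4 at an adjusted p of at most 0.05, 4 by DESeq2 and 1 to 4 with a library left out. The cause of these changes was not tested.

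The type II share of the keratin level, for the control, the SOX9-mEGFP and SOX9-Halo budding organoids and the SOX9-mEGFP and SOX9-Halo spheroids in turn, was 56.6%, 57.5%, 54.7%, 54.5% and 53.1% without division by length, and 1.93%, 1.70%, 1.08%, 3.85% and 9.37% without Krt8. With the length of the canonical transcript, chosen after seeing the data, it moved beyond its SD in SOX9-Halo_budding (48.6%) and SOX9-mEGFP_spheroid (46.5%). Of 1167 single-keratin results under an alternative, 1127 kept their side of the thresholds, 33 were no longer called, 7 became called and 0 called values reversed. The 1127 include uncalled values that changed sign. Library sizes alone raised the median log2 fold change of all genes to 0.27 to 0.31 in the comparisons with Halo-NLS. Single libraries moved some log2 fold changes while the call stayed. Against Halo-NLS, leaving out control replicate 1 moved Krt78 from 4.29 to 4.95 in SOX9-Halo_spheroid and from 4.08 to 4.74 in SOX9-mEGFP_spheroid, leaving out control replicate 3 moved Krt6a from 4.94 to 7.06 and from 6.64 to 8.76 (fitted values against a group then at 0, which are no bounds), and leaving out SOX9-Halo_spheroid replicate 1 moved Krt20 there from -9.66 to -10.36. The uncalled Krt19 value in SOX9-Halo_spheroid against Halo-NLS ranged from -0.31 to 0.12.

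With the replicate number as a block, calls were 10, 9, 10 and 9 in the 4 comparisons of a spheroid condition with Halo-NLS or its budding condition, in the order above, Krt20 being gained (lower) in SOX9-mEGFP_spheroid against Halo-NLS, and 3 for the difference between the lines. Deviations of same-numbered libraries from their group means correlated over 0.1 in 17 of 30 pairs of libraries (median 0.166, range -0.219 to 0.697, across 15718 genes), and in all 3 pairs only for SOX9-Halo_budding and SOX9-Halo_spheroid. Within that line a block, chosen after seeing the data, gave 11 calls, without Krt6a and with Krt13 and Krt16. The main values given for that line come from the fit with condition as the only term.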
